A study of Mus musculus with 6 samples.

Results

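The 31 genes described here are immediate early and growth factor response genes, chosen by name from the mouse annotation: the AP-1 genes of the Fos and Jun families (7 genes), the related bZIP genes Atf3 and Maff, the EGR (3), NR4A (3), KLF (3) and IER (3) genes, 6 feedback inhibitors of ERK signalling (Dusp1, Dusp4, Dusp5, Dusp6, Spry2 and Spry4), and Myc, Zfp36, Btg2 and Srf. All 31 are among the 28293 genes in the count files, and all 31 passed the low-count filter that left 15081 genes to test. They were compared between 3 RNA-seq libraries with the genotype Lap2alpha KO (KO) and 3 with the genotype WT, all from mouse dermal fibroblasts that the labels call a cell line. Both groups were cultured in DMEM with fetal calf serum and antibiotics, with no treatment or stimulation named in the labels, and the RNA was poly(A)-selected before sequencing. LAP2alpha is a nucleoplasmic partner of A-type lamins and 1 of several products of the gene Tmpo, so the knockout is of an isoform that a count per gene does not resolve. The labels do not say whether the replicates were separate cultures, or whether either line is a clone. P-values therefore measure the spread between these libraries only, and the genotype and any other difference between the lines cannot be told apart.

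Immediate early genes are transcribed within minutes after serum or a growth factor reaches a cell, without new protein synthesis. Receptor tyrosine kinases signal through RAS and ERK to ternary complex factors and SRF, which bind CArG boxes, while kinases that phosphorylate CREB act through cAMP response elements (CRE). The products are mostly transcription factors (AP-1, EGR, NR4A, KLF, Myc), and with them come phosphatases and Sprouty proteins that dampen ERK signalling again and RNA-binding proteins such as the Zfp36 product, which shortens the life of mRNAs with AU-rich elements. In fibroblasts returning from serum starvation these genes form the classical serum response.

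Promoter sequences show what some of these genes share and where they part. Of the 31 members, 24 had a promoter window in the RefSeq table (GRCm38.p6, 250 bases before to 50 after the transcript start nearest the 5′ end of the gene in GENCODE M21). Fosl1, Egr1, Egr3, Dusp4, Spry4, Ier2 and Myc were not among them. Windows were searched on both strands, and a match is a description of letters. Sequence outside the windows was not searched, so a window without a match does not show that the gene lacks the motif. The CRE core TGACG, which is part of the full CRE, was found in 13 of 24 member promoters (54.2%) and in 32.2% of the promoters of 10030 tested genes. The full CRE TGACGTCA was in 2 of 24, those of Dusp1 and Btg2, and in 3.27% of all. A CArG box was in 3 of 24 (12.5%), those of Dusp5, Srf and Zfp36, and in 1.29% of all. The AP-1 site TGANTCA was in 0 of 24 and 4.78% of all, and the EGR site GCGTGGGCG in 0 of 24 and 1.19% of all. The ETS core CCGGAA was in 4 of 24 (16.7%) and 29.1% of all, and the TATA box TATAAA in 4 of 24 (16.7%) and 7.07% of all.

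The NR4A promoters are printed because all 3 hold 4 matches to the CRE core, and all 3 genes were lower in KO. A minimum of 4 matches, chosen after the matches were seen, is met by 0.608% of the 10030 promoters. Whether the matches bear on the decrease was not tested. Capitals mark TGACG or its reverse complement CGTCA. The Nr4a1 window lies within the annotated gene, whose 5′ end is base 101254269, and not at that end. The windows are chr15:101266596-101266895 on the plus strand for Nr4a1, chr2:57123954-57124253 on the minus strand for Nr4a2 and chr4:48045055-48045354 on the plus strand for Nr4a3.
Nr4a1: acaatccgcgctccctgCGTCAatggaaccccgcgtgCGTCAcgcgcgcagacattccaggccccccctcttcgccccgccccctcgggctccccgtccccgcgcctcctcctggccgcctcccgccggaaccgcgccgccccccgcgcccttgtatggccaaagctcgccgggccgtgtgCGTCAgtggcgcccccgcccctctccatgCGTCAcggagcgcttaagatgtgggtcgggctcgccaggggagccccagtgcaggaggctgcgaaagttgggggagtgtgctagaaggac
Nr4a2: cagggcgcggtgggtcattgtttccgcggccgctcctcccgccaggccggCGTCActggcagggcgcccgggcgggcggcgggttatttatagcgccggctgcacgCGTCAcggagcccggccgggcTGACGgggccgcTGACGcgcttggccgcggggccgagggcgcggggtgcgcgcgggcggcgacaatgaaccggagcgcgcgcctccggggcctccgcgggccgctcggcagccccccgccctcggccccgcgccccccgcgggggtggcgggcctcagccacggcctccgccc
Nr4a3: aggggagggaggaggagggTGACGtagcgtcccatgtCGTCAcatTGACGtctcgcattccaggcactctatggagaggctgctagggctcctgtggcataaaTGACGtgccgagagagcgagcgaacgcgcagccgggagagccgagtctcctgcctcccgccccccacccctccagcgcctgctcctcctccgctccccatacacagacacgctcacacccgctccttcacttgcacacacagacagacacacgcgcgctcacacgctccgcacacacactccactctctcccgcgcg

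The CArG-box promoters are printed because their genes did not move the same way: Dusp5 and Srf were lower in KO and Zfp36 was higher. Capitals mark CArG boxes and the CRE core. In Dusp5 the boxes adjoin each other, 82 to 73 and 72 to 63 bases before the start. In Srf they lie 82 to 73 and 62 to 53 bases before the start, and the box of Zfp36 lies 58 to 49 bases before it. The windows are chr19:53528895-53529194 on the plus strand for Dusp5, chr17:46556113-46556412 on the minus strand for Srf and chr7:28379179-28379478 on the minus strand for Zfp36.
Dusp5: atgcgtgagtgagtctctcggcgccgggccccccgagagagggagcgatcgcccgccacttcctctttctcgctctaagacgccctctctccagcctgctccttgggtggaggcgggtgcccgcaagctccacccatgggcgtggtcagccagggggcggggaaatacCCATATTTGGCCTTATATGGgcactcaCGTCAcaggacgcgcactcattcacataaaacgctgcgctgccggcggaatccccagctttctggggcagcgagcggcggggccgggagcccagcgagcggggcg
Srf: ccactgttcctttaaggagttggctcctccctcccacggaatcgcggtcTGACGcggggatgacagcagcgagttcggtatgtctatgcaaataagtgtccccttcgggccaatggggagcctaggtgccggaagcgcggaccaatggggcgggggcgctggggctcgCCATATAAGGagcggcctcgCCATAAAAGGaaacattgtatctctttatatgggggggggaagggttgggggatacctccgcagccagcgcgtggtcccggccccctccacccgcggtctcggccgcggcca
Zfp36: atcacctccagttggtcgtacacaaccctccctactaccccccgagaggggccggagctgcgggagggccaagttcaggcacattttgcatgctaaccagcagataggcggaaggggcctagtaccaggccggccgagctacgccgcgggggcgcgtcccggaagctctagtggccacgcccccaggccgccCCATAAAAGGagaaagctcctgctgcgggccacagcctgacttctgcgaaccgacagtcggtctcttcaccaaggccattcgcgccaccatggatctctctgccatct

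The libraries held 25768678 to 27281473 counts in KO and 22159339 to 26553616 in WT. Tmpo, the targeted gene, stood at 135, 122 and 131 CPM (the count scaled to the library total) in KO and at 254, 249 and 252 CPM in WT, so it fell by 1.04 on the log2 scale with an SE of 0.055 (edgeR adjusted p = 4.9e-08). Its count sums all isoforms. The 13 fibroblast markers had a summed level of 25841 to 27436 CPM in KO and 8843 to 9624 CPM in WT. Of these markers 10 rose and 1 fell. Not all were well expressed in WT: Lum had 0.0681 ± 0.0465 CPM there and Fap 0.342 ± 0.0357 CPM. In KO they had 2.28 ± 0.305 and 1.96 ± 0.227 CPM. Of 37 markers of keratinocytes, endothelium, immune cells, melanocytes, Schwann cells, muscle and fat, 25 had a value, 3 were at 0 in every KO library (Epcam, Ptprc and Mlana) and 1 was at 0 in every WT library (Krt15). Their summed level was 20.9 to 22.2 CPM in KO and 19.4 to 23.1 CPM in WT, and 3 rose and 5 fell among the 9 tested. The mitochondrial genome supplied 4.13 ± 0.351% of counts in KO libraries and 2.15 ± 0.268% in WT libraries. Of 9 proliferation genes 8 fell, among them Ccna2, with 153 ± 2.13 CPM in KO against 389 ± 6.80 CPM in WT. Mki67 was not called. Over all tested genes 37.7% rose and 37.5% fell. The part of the mitochondrial share, of these markers and of proliferation in the results below was not tested.

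Most members were lower in KO. Of the 31, 19 fell and 7 rose at an edgeR adjusted p under 0.05, the threshold for a call, and 5 were not called. Over all 15081 tested genes 37.5% fell and 37.7% rose, and 75.1% were called in either direction against 83.9% of the members. The median log2 fold change of the members was −0.61, against 0.01 for all tested genes, and their median absolute change was 0.86 against 0.58. At least 2-fold decreases were called for 11 members and increases for 2, where 11.4% and 16.7% of all tested genes passed. Against a fold of 1.5 (edgeR's glmTreat), 14 members were lower and 3 higher, with 16.8% and 20.5% of all genes. In 17 members every KO library lay below every WT library and in 8 every KO library lay above, against 34.6% and 42.2% of all tested genes, 76.8% together. In these bulk libraries fewer expressing cells and less RNA per cell cannot be told apart.

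Role groups parted from each other. All 24 members outside AP-1 were called, 18 lower and 6 higher, whereas 5 of the 7 AP-1 genes were not. Calls were common among all tested genes, at 75.1%, with 37.5% lower and 37.7% higher. Every NR4A, KLF and IER gene and both other bZIP genes fell, and every EGR gene rose. The ERK feedback inhibitors were split, with 4 lower and 2 higher. Median log2 fold changes were −1.96 for NR4A, −1.48 for IER, −1.33 for Atf3 and Maff, −1.07 for ERK feedback, −0.61 for KLF, 0.10 for AP-1 and 1.08 for EGR. The AP-1 median was 0.03 without WT replicate 1. With 2 to 7 genes a group these medians describe the named genes, and no test was made between groups.

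**Figure D1:**
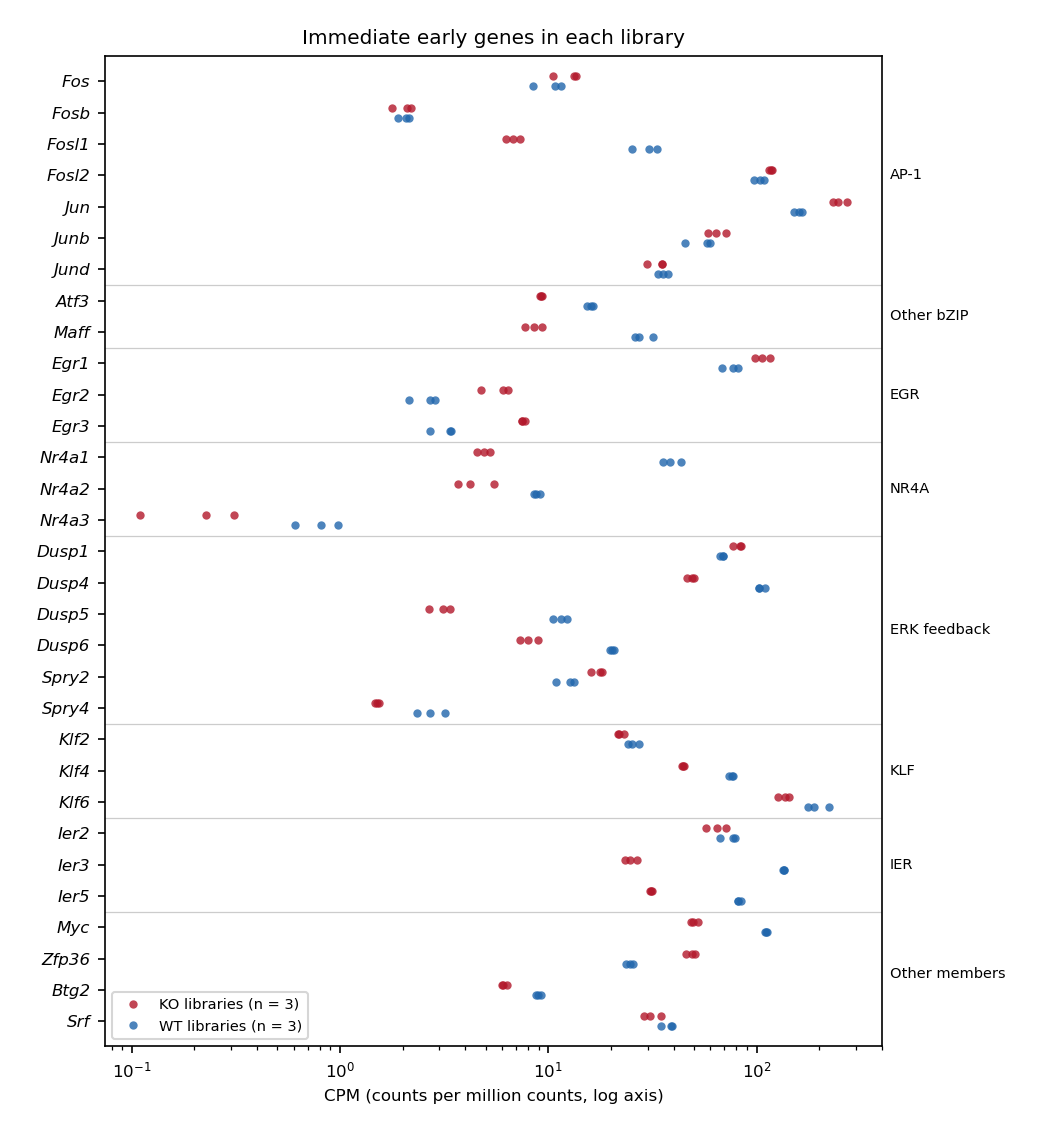
Level of each of the 31 members in CPM (log axis), 1 point per library, KO (upper row of each gene, red) above WT (lower row, blue), ordered by role group. The 3 KO points of Nr4a1 lie at 4.55 to 5.24 CPM and its WT points at 35.5 to 43.5 CPM, while the points of Fos, Fosb, Junb, Jund, Ier2 and Srf overlap between the groups.

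**Figure D2:**
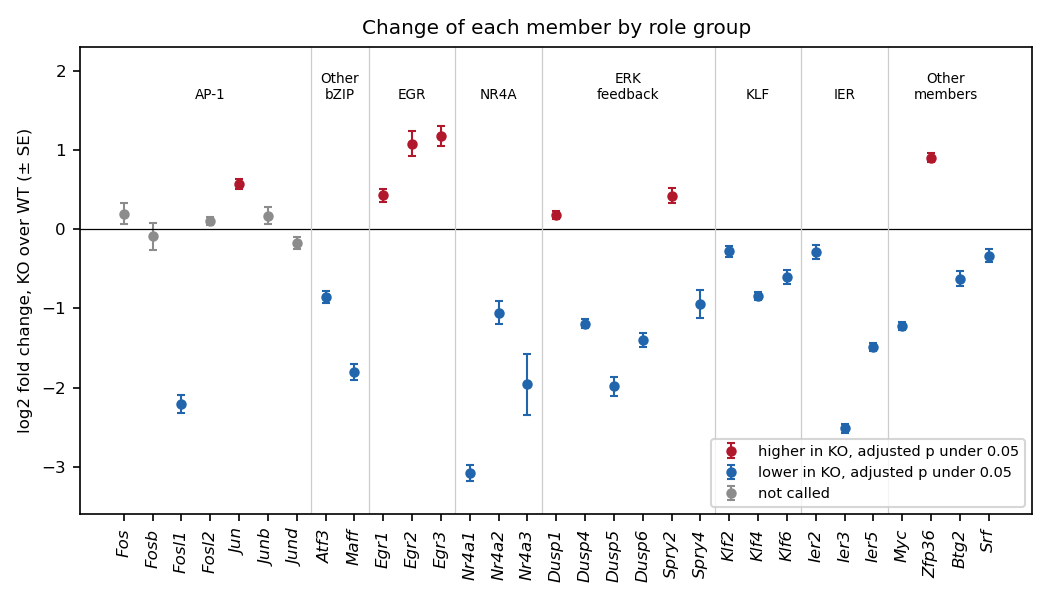
Log2 fold change of each member, KO over WT, with its SE from edgeR, grouped by role; red is called higher, blue called lower and grey not called. The change runs between −3.08 for Nr4a1 and 1.18 for Egr3, and grey points occur in the AP-1 group only.

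AP-1 is a dimer of a Fos and a Jun family protein, or of a pair of Jun proteins, and its make-up sets which genes it acts on. Fos, the founding immediate early gene, had 10.5, 13.6 and 13.3 CPM in KO and 8.48, 10.8 and 11.6 CPM in WT. The groups overlapped, and the change of 0.20 on the log2 scale, with an SE of 0.13, was not called (edgeR adjusted p = 0.2). Fosb, its close relative, was low in both, with 2.02 ± 0.210 CPM in KO against 2.04 ± 0.130 CPM in WT (SD, n = 3 each), with a log2 fold change of −0.09.

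Fosl1 encodes FRA1, a Fos protein without the strong activation domain of Fos, which accumulates in cells with sustained ERK activity. It had 6.78, 6.30 and 7.30 CPM in KO and 25.2, 33.1 and 30.6 CPM in WT. Every KO library lay below every WT library, and Fosl1 fell 4.61-fold (log2 fold change −2.20, SE 0.11, edgeR adjusted p = 4e-08). Fosl1 (ENSMUSG00000024912) occupies bases 5447547 to 5455946 of chromosome 19 (GRCm38, plus strand), and 57.2% of its exonic sequence is opposite exons of Ccdc85b. Whether the authors counted by strand is not given in the sources used here. Ccdc85b itself had 51.97 ± 3.05 CPM in KO and 48.8 ± 1.17 CPM in WT and was not called (log2 fold change 0.01, edgeR adjusted p = 0.86).

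Fosl2, which encodes FRA2, had 117, 115 and 119 CPM in KO and 108, 97.7 and 104 CPM in WT. Its groups did not overlap, yet the log2 fold change of 0.10 (SE 0.055) gave an edgeR adjusted p = 0.11. With library totals in place of TMM it was called at 0.18 (edgeR adjusted p = 0.011), so its call rests on the scaling.

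Jun was the AP-1 gene that rose. It had 233, 246 and 271 CPM in KO and 152, 166 and 161 CPM in WT, all KO libraries above all WT libraries. The change was 1.49-fold (log2 fold change 0.57, SE 0.066, edgeR adjusted p = 1.9e-05). Jun occupies bases 95049034 to 95052222 of chromosome 4, minus strand, and 7.28% of its exonic sequence is opposite the antisense gene Junos, which had 6.46 ± 1.05 CPM in KO and 1.32 ± 0.209 CPM in WT. Without strand in the counting, reads of such a pair cannot be told apart.

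Junb, which can restrain Jun, was not called, with 64.5 ± 6.32 CPM in KO against 54.3 ± 7.98 CPM in WT (log2 fold change 0.17, edgeR adjusted p = 0.17). Jund, the Jun gene that is least dependent on serum, was not called either, with 33.3 ± 3.10 CPM in KO against 35.6 ± 2.09 CPM in WT (−0.18, edgeR adjusted p = 0.063). The libraries of the groups overlapped for both genes. Exons of Prdx2 face 7.52% of the exonic sequence of Junb. Prdx2 had 316 ± 4.84 CPM in KO and 386 ± 19.6 CPM in WT and was called lower. Exons of an antisense gene that was not analysed here face 52.6% of the exonic sequence of Jund. Jund is near the threshold: it was called lower without KO replicate 3 (−0.23, edgeR adjusted p = 0.031), without WT replicate 1 (−0.24, edgeR adjusted p = 0.026) and with no low-count filter (−0.20, edgeR adjusted p = 0.027). The value of Fos rests on single libraries: leaving out 1 library at a time gave 0.06 without WT replicate 1 (edgeR adjusted p = 0.68) to 0.32 without KO replicate 1 (edgeR adjusted p = 0.042), and the other 4 such fits did not call it.

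Per kilobase of exon, the scale on which genes can be set beside each other, the Fos family summed to 21.04 ± 0.815 in KO and 29.9 ± 2.15 in WT (CPM per kilobase, n = 3 each). Fosl1 made up 16.5, 14.7 and 16.4% of this sum in the KO libraries and 45.1, 52.02 and 48.5% in the WT libraries. Fosl2 took the largest share in KO, 57.4 ± 2.00%, and 35.8 ± 4.34% in WT, and Fos took 25.1 ± 2.74% in KO and 14.5 ± 1.35% in WT. In WT the family was therefore mainly Fosl1 and Fosl2 transcript, and in KO mainly Fosl2 and Fos. The Jun family summed to 126 ± 10.3 in KO and 94.98 ± 6.59 in WT on the same scale. Jun was its main member in both, with 62.1 ± 0.730% in KO and 52.8 ± 1.62% in WT, and Jund held 15.8 ± 0.766% in KO and 22.5 ± 0.905% in WT. Shares add to a fixed total, so a fall of Fosl1 alone raises the shares of the others.

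Atf3 and Maff encode bZIP proteins outside the Fos and Jun families, a stress-induced repressor that can pair with Jun and a small MAF protein that has no activation domain. Atf3 had 9.35, 9.16 and 9.20 CPM in KO and 15.3, 16.4 and 15.98 CPM in WT. The KO libraries lay below the WT libraries, a 1.82-fold fall (log2 fold change −0.86, SE 0.076, edgeR adjusted p = 2.2e-06). Maff had 9.35, 8.52 and 7.76 CPM in KO and 31.7, 27.2 and 26.1 CPM in WT, and fell 3.49-fold (−1.80, SE 0.10, edgeR adjusted p = 7.7e-08). Its relative Mafk fell also (−1.34), while Mafg was not called (−0.11).

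The EGR genes encode zinc finger factors that are induced through SRF and ternary complex factors. All 3 rose, and in all 3 the KO libraries lay above the WT libraries. Egr1 had 98.6, 107 and 116 CPM in KO and 68.1, 77.01 and 81.3 CPM in WT, a 1.34-fold increase (log2 fold change 0.43, SE 0.079, edgeR adjusted p = 0.00058). Egr2 had 6.08, 6.37 and 4.73 CPM in KO and 2.84, 2.71 and 2.15 CPM in WT, a 2.12-fold increase (1.08, SE 0.16, edgeR adjusted p = 0.00014). Egr3, a close relative, had 7.44, 7.69 and 7.45 CPM in KO and 3.43, 2.71 and 3.37 CPM in WT. Its increase was 2.26-fold (1.18, SE 0.12, edgeR adjusted p = 8.3e-06). Egr2 and Egr3 changed more in ratio, but Egr1 supplied most EGR transcript per kilobase, 87.5 ± 1.61% in KO and 91.9 ± 1.31% in WT.

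The NR4A genes encode orphan nuclear receptors that need no ligand and are governed mainly by their level; CREB and MEF2 factors are known to switch them on. Nr4a1 (NUR77) had 4.55, 5.24 and 4.89 CPM in KO and 43.5, 38.6 and 35.5 CPM in WT. No KO library came near the WT range, and the fall was 8.45-fold, the widest change among the 31 members (log2 fold change −3.08, SE 0.10, edgeR adjusted p = 2.5e-09). Nr4a1 (ENSMUSG00000023034) occupies bases 101254269 to 101274795 of chromosome 15, plus strand. Nr4a2 (NURR1) had 5.46, 3.70 and 4.23 CPM in KO and 9.12, 8.74 and 8.52 CPM in WT, and fell 2.07-fold (−1.05, SE 0.14, edgeR adjusted p = 5.4e-05). Nr4a3 (NOR1) was the lowest member per kilobase in both groups, with 3, 6 and 8 counts in KO and 18, 26 and 15 counts in WT. These few counts also kept KO below WT in every library, and the fall was 3.89-fold with a wide error (−1.96, SE 0.39, edgeR adjusted p = 0.00096). The 3 genes, whose promoters are printed above, summed to 2.53 ± 0.115 CPM per kilobase in KO and 13.5 ± 1.248 in WT. Nr4a1 formed 55.3 ± 6.26% of this sum in KO and 82.9 ± 0.916% in WT, and Nr4a2 43.3 ± 6.76% in KO and 16.1 ± 0.930% in WT.

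The ERK feedback genes encode nuclear (DUSP1, DUSP4, DUSP5) and cytoplasmic (DUSP6) phosphatases of MAP kinases and the Sprouty adaptors, which act upstream at the receptor and RAS. Dusp5 and Dusp6 products are selective for ERK, while DUSP1 also acts on p38 and JNK. Dusp5 had 2.68, 3.13 and 3.38 CPM in KO and 12.3, 11.5 and 10.5 CPM in WT, a 3.95-fold fall without overlap (log2 fold change −1.98, SE 0.12, edgeR adjusted p = 1.5e-07). Antisense exons of a gene that had 0.0496 CPM in KO and 0.0672 CPM in WT face 22.1% of its exonic sequence. Dusp6, the usual transcript marker of ERK output, had 8.91, 7.28 and 7.99 CPM in KO and 20.7, 19.7 and 20.2 CPM in WT, and fell 2.64-fold (−1.40, SE 0.090, edgeR adjusted p = 2e-07). Dusp4 had 50.2, 46.3 and 49.1 CPM in KO and 109.6, 103 and 103 CPM in WT, and fell 2.29-fold (−1.19, SE 0.058, edgeR adjusted p = 2.7e-08). KO and WT libraries were apart for each of these genes.

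Dusp1, the phosphatase gene that stress also induces, went the other way by a small amount. It had 77.4, 83.03 and 83.8 CPM in KO and 66.8, 69.1 and 68.7 CPM in WT, a 1.13-fold increase (log2 fold change 0.18, SE 0.053, edgeR adjusted p = 0.012). That call depended on single libraries. It was lost without KO replicate 3 (0.14, edgeR adjusted p = 0.055), WT replicate 1 (0.14, edgeR adjusted p = 0.058) or WT replicate 3 (0.16, edgeR adjusted p = 0.065). Leaving out any other single library kept it. The Sprouty genes moved in opposite directions. Spry2 rose 1.34-fold, with 17.3 ± 1.09 CPM in KO against 12.3 ± 1.21 CPM in WT (0.42, SE 0.094, edgeR adjusted p = 0.0021). Spry4 fell 1.92-fold, with 1.51 ± 0.0324 CPM in KO against 2.76 ± 0.428 CPM in WT (−0.94, SE 0.18, edgeR adjusted p = 0.00074). Of the summed DUSP level per kilobase, Dusp1 formed 53.3 ± 1.92% in KO and 29.4 ± 1.12% in WT, and Dusp4 38.4 ± 1.57% in KO and 54.7 ± 0.854% in WT. Among these DUSP genes the largest share was thus that of Dusp1 in KO libraries and of Dusp4 in WT libraries. With the length of the longest coding transcript the WT shares were closer, 45.4 ± 0.991% for Dusp4 and 40.6 ± 1.30% for Dusp1. In KO they were then 28.2 ± 1.41% for Dusp4 and 65.2 ± 1.78% for Dusp1.

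**Figure D3:**
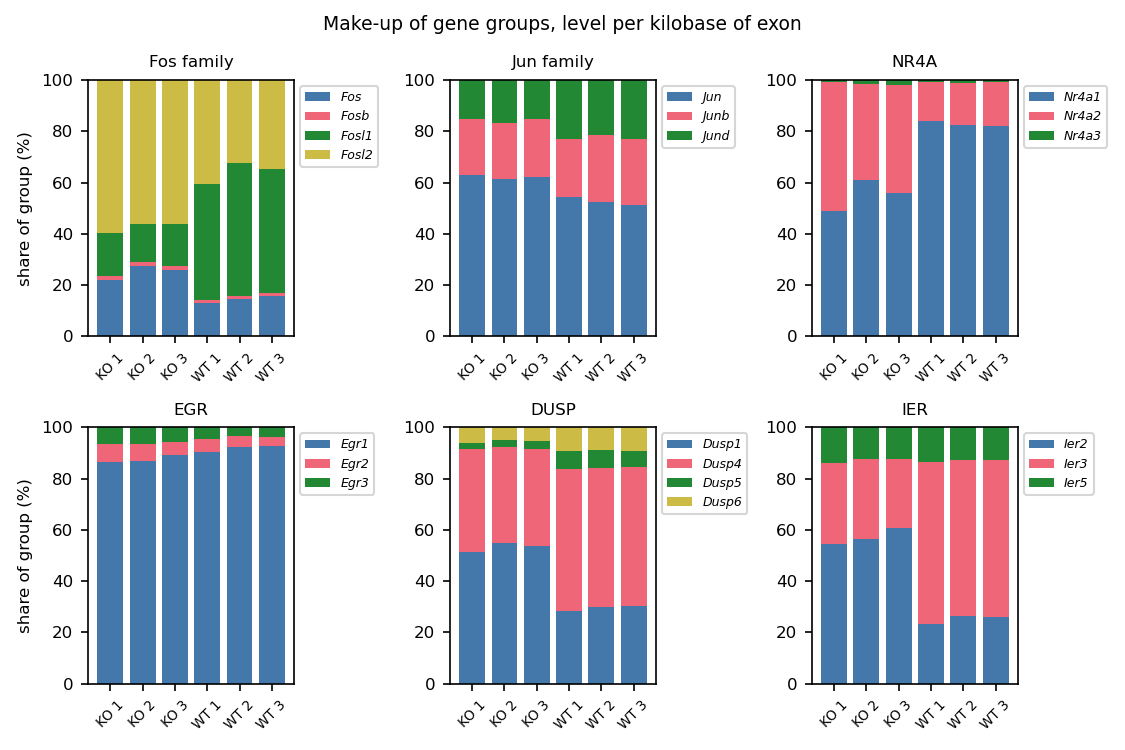
Share of each gene in the summed level per kilobase of exon of its group (percent of 100), 1 stacked bar per library, KO libraries left of WT libraries. Fosl1 (green in the Fos panel) takes 14.7 to 16.5% in KO and 45.1 to 52.02% in WT, and Dusp1 (blue in the DUSP panel) takes 51.3 to 55.04% in KO and 28.1 to 30.1% in WT.

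KLF2, KLF4 and KLF6 are zinc finger factors that are induced early by serum and linked to cell cycle exit or wound repair. Klf4 had 44.4, 44.99 and 43.8 CPM in KO and 73.6, 76.1 and 76.7 CPM in WT, a 1.79-fold fall (log2 fold change −0.84, SE 0.049, edgeR adjusted p = 9.5e-08). Klf6, at 144, 137 and 126 CPM in KO and 223, 176 and 188 CPM in WT, fell 1.52-fold (−0.61, SE 0.086, edgeR adjusted p = 9.2e-05). Klf2 fell least, 1.21-fold, with 22.2 ± 0.830 CPM in KO against 25.6 ± 1.67 CPM in WT (−0.28, SE 0.071, edgeR adjusted p = 0.0048). None of the 3 overlapped between the groups. Of the KLF level per kilobase, Klf6 held 53.7 ± 1.61% in KO and 53.5 ± 2.74% in WT, and these shares overlapped. Klf2 held 20.9 ± 0.966% in KO and 16.6 ± 0.120% in WT, and Klf4 25.3 ± 0.719% in KO and 29.9 ± 2.64% in WT, both without overlap between the groups.

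The IER genes are named for their early induction. Ier3 (IEX-1), an ERK-dependent survival gene, had 24.7, 26.6 and 23.4 CPM in KO and 134, 135 and 136 CPM in WT. The WT libraries lay close together and far above KO, and the fall was 5.72-fold with the smallest p among the members (log2 fold change −2.52, SE 0.059, edgeR adjusted p = 3.1e-10). Ier3 (ENSMUSG00000003541) is a compact gene at bases 35821684 to 35822923 of chromosome 17, plus strand. Ier5, whose product acts in the heat shock response, had 31.5, 30.9 and 31.1 CPM in KO and 84.6, 81.7 and 81.5 CPM in WT, a 2.80-fold fall (−1.48, SE 0.052, edgeR adjusted p = 3.2e-09). Ier2, a nuclear protein gene, had 57.4, 64.4 and 71.02 CPM in KO and 66.5, 78.97 and 77.3 CPM in WT. Here the groups overlapped, and the call (−0.29, SE 0.089, edgeR adjusted p = 0.013) was lost without KO replicate 1 (−0.20, edgeR adjusted p = 0.051), without WT replicate 2 (−0.24, edgeR adjusted p = 0.056) and with library totals alone (−0.21, edgeR adjusted p = 0.052).

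Myc, the growth regulator that drives ribosome and nucleotide synthesis, had 48.6, 52.1 and 49.7 CPM in KO and 112, 111 and 109.6 CPM in WT. The groups were far apart and the fall was 2.33-fold (log2 fold change −1.22, SE 0.051, edgeR adjusted p = 1.1e-08). Zfp36, which encodes tristetraprolin, had 49.04, 50.8 and 45.99 CPM in KO and 23.6, 24.6 and 25.6 CPM in WT, and rose 1.87-fold (0.90, SE 0.060, edgeR adjusted p = 2.7e-07). Btg2, an antiproliferative cofactor of mRNA deadenylation that p53 induces, fell 1.54-fold, with 6.13 ± 0.184 CPM in KO against 8.96 ± 0.219 CPM in WT (−0.62, SE 0.091, edgeR adjusted p = 0.00011). Srf, the factor that binds CArG boxes, had 28.7, 30.8 and 34.8 CPM in KO and 34.7, 39.2 and 38.7 CPM in WT. These values overlapped by a narrow margin, KO replicate 3 against WT replicate 1, and Srf fell 1.26-fold (−0.33, SE 0.082, edgeR adjusted p = 0.0037).

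The order of the levels per kilobase differed between the groups. In KO, Jun was highest at 78.4 ± 6.01 CPM per kilobase, followed by Ier2 at 42.2 ± 4.49, Klf6 at 30.9 ± 1.99 and Junb at 28.04 ± 2.75. Dusp1 (24.6 ± 1.06), Egr1 (23.9 ± 1.92) and Ier3 (22.002 ± 1.42) came next in KO. From Klf6 to Ier3 the ranges of mean ± SD of neighbours in this order overlapped, while those of Jun, Ier2 and Klf6 lay apart. In WT, Ier3 was highest at 119 ± 0.690 CPM per kilobase, followed by Jun at 50.04 ± 2.20, Ier2 at 48.8 ± 4.46 and Klf6 at 44.6 ± 5.50, and the ranges of mean ± SD of the last 3 of these overlapped. Myc (40.8 ± 0.472) and Dusp4 (38.4 ± 1.42) followed in WT. Ier3 thus had rank 7 of 31 in KO and rank 1 in WT, and Nr4a1 rank 26 in KO and rank 16 in WT. The lowest levels were those of Spry4, Fosb and Nr4a3, at 0.317 ± 0.00682, 0.324 ± 0.0336 and 0.0360 ± 0.0168 CPM per kilobase in KO and 0.580 ± 0.0900, 0.327 ± 0.0208 and 0.134 ± 0.0310 in WT.

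**Figure D4:**
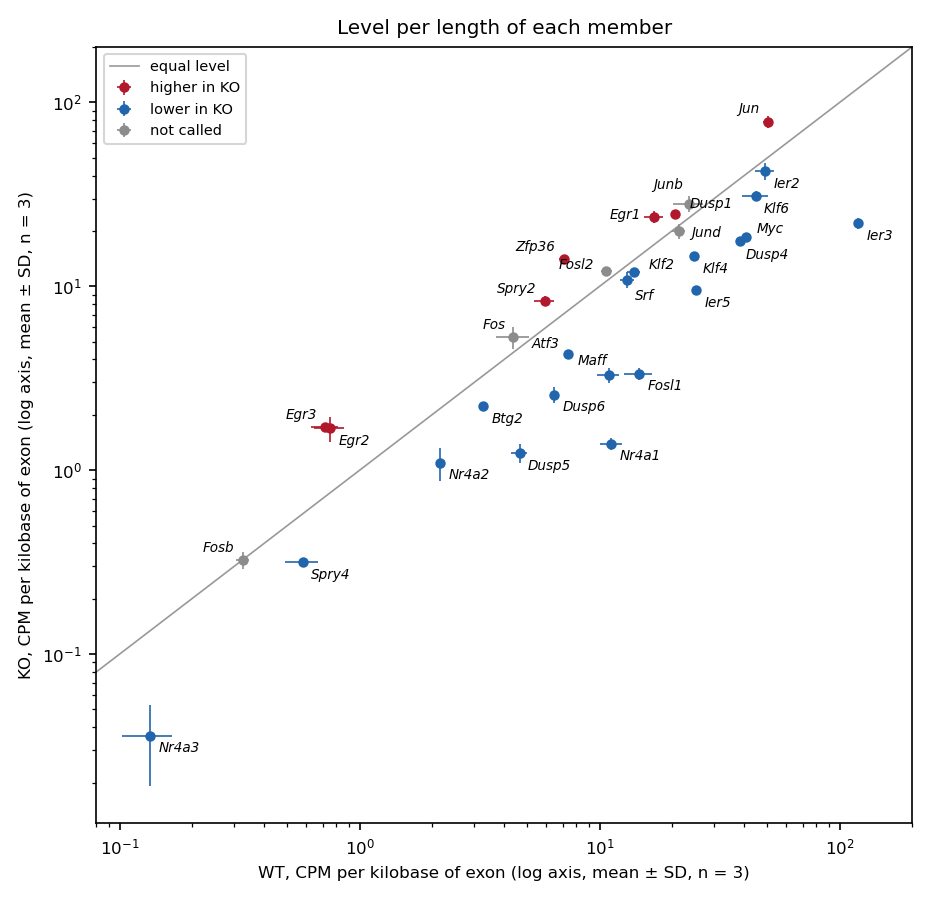
Level of each member in CPM per kilobase of exon, KO (vertical, log axis) against WT (horizontal, log axis), as means with SD over 3 libraries; the grey line marks equal level. Ier3 has the highest WT level, 119, and a KO level of 22.002, and Jun is the highest in KO at 78.4.

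The median SD of log2 CPM was 0.103 in KO and 0.0940 in WT for the members, against 0.105 in KO and 0.0995 in WT for all tested genes. An SD over 0.25 was seen for 2 members in KO (Nr4a2 and Nr4a3) and 1 in WT (Nr4a3), where 16.5% and 19.0% of all tested genes exceeded it. Among Fos, Jun, Junb, Jund, Egr1, Dusp1, Ier2, Btg2 and Srf, the lowest library was replicate 1 in KO and replicate 1 in WT alike. That is 9 of 31 members, and 22.8% of all tested genes had the same pair of lowest libraries.

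Members were compact genes. Their median span was 5412 bases against 24167 for 12119 tested protein-coding genes, 21 of 31 spanned under 10000 bases against 24.0%, and the longest coding transcript had a median of 3 exons against 9. In the 3′ UTR of that transcript the AU-rich core TATTTAT, which the Zfp36 product is known to bind and which was searched after the values were seen, occurred at least once in 19 of 31 members (61.3%) and in 30.5% of 11980 tested protein-coding genes with a 3′ UTR. The density was 0.819 sites per kilobase over the members and 0.288 over those genes, whose median 3′ UTR was 1164 bases against 1111 for the members. The share with a site was 11 of the 19 that fell (57.9%), 4 of the 7 that rose (57.1%) and 4 of the 5 not called. Ier3 has 4 sites in a 3′ UTR of 613 bases, and Nr4a1, Dusp4, Dusp5, Dusp6, Ier5 and Myc have 0. Whether these sites bear on the changes was not tested. Of promoters with a CRE core, 9 belonged to the 14 genes with a window that fell, 1 to the 5 that rose and 3 to the 5 not called. Fosl1, Dusp4, Spry4, Ier2 and Myc, which fell, and Egr1 and Egr3, which rose, had no window. A link between CRE cores and the changes was not tested.

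Genes around the members in the pathway went both ways, and values in parentheses are log2 fold changes. The counts of each list stand beside 37.7% higher and 37.5% lower over all tested genes. Of 12 tested growth factor receptors 8 rose and 2 fell, and the list's median was 0.55 (log2). The PDGF receptors Pdgfra, with 553 ± 17.05 CPM in KO against 79.1 ± 5.92 CPM in WT, and Pdgfrb, with 246 ± 9.62 CPM in KO against 47.6 ± 6.13 CPM in WT, rose, as did the EGF receptor Egfr (1.15) and the insulin receptor Insr (1.41). Erbb2 (0.13) and Igf1r (−0.11) were not called. Of 11 growth factors 4 rose and 6 fell (median −0.32). Hbegf, an EGF receptor ligand that is itself an ERK target, fell to 11.5 ± 0.435 CPM in KO, against 50.6 ± 3.55 CPM in WT, and Areg, another EGF receptor ligand, had 0.0122 ± 0.0212 CPM in KO, 1 count in all, and 1.11 ± 0.103 CPM in WT. Igf1 rose (2.11) and Fgf7 fell (−0.87).

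In the RAS-ERK cascade 10 of 26 genes rose and 14 fell, against 37.7% and 37.5% of all tested genes. The list's median was −0.20 (log2). The adaptor Shc1 (1.22), the small GTPase Rras (1.09) and the scaffold Ksr1 (1.38) rose, the GTPase Rras2 fell (−1.44), and the kinase Rps6ka2 (0.14) was not called. SRF cofactors and CREB regulators changed little in size: 7 of 13 rose and 2 fell, none by 2-fold, and the list's median was 0.25. Among them the ternary complex factor Elk1 (0.42), the SRF coactivator Mrtfa (0.52) and the CREB coactivators Crtc1 (0.57) and Crtc3 (0.64) rose, and the CREB-family genes Crem (−0.06) and Atf1 (0.05) were not called. Of 14 cytoskeletal genes that SRF regulates 6 rose and 5 fell (median 0.17), close to the shares of all tested genes. Acta2 (2.37) and Myl9 (3.46) were higher, Filip1l was lower (−0.58), and Vcl (0.01) and Tpm1 (−0.06) were not called.

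ERK targets and feedback genes outside the 31 members leaned lower. Of 20 tested, 12 fell and 5 rose, against 37.5% and 37.7% of all tested genes, and the list's median was −0.46 (log2). Spry1, a further Sprouty gene, fell to 4.16 ± 0.503 CPM in KO, against 16.9 ± 1.08 CPM in WT (−2.09), and the ETS factor Etv4, an ERK target, fell to 19.9 ± 0.542 CPM in KO, against 41.3 ± 1.61 CPM in WT (−1.13). Dusp3 fell (−0.92), Ets2 rose (0.87), and Spred2 (0.01) and Etv1 (0.23) were not called. Among 40 other primary response genes 20 fell, 12 rose and 8 were not called, and the list's median was −0.20. Ptgs2, cyclooxygenase-2, had 16.3 ± 1.06 CPM in KO and 259 ± 27.98 CPM in WT, and Ccn2, a secreted matrix-associated protein, also fell (−2.63), while the GTPase Gem (1.64) and the growth arrest gene Gadd45a (1.21) rose and Trib1 (−0.03) and Nfil3 (0.04) were not called. Of 11 AP-1 related bZIP genes 6 rose and 3 fell (median 0.29). The large MAF factor Maf rose to 221, 193 and 186 CPM in KO, against 16.02, 13.03 and 13.9 CPM in WT. Atf7 also rose (1.15), and Atf2 was not called (0.01).

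**Figure D5:**
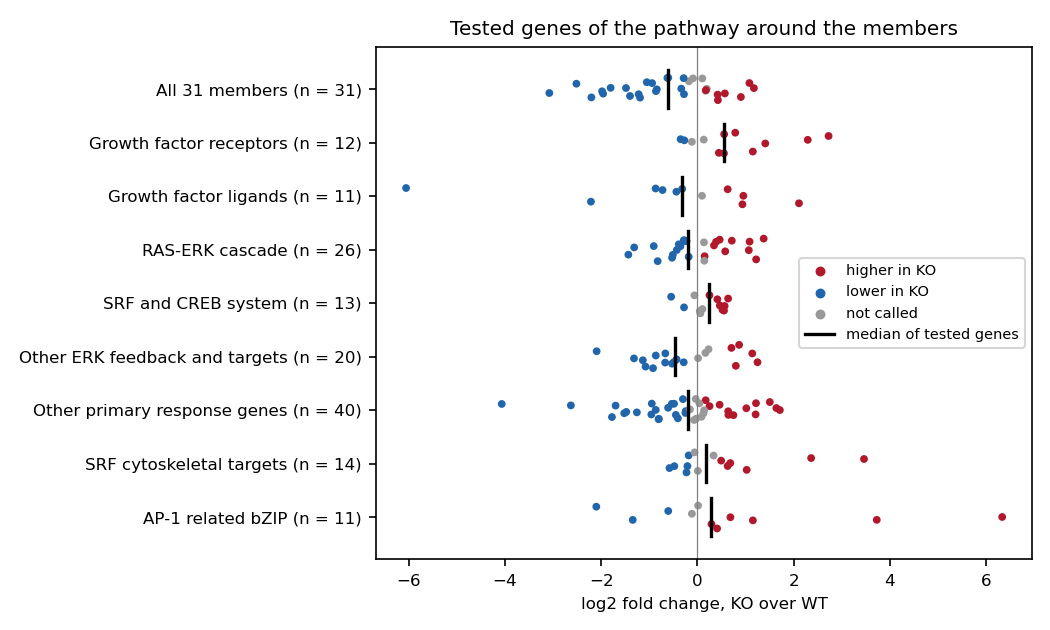
Log2 fold change, KO over WT, of each tested gene in the 31 members and in 8 lists of the surrounding pathway; points are genes (red called higher, blue called lower, grey not called), spread vertically for sight only, and black bars are medians. The members' bar lies at −0.61, the receptors' at 0.55 and that of the other ERK feedback genes and targets at −0.46.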

How the data were processed

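The data are raw read counts per Ensembl gene, 1 table for each of 6 poly(A)-selected, directional RNA-seq libraries. The authors aligned reads with STAR 2.7.10b to GRCm38 and deposited the counts, per the submitters' processing notes. For the counting program, its annotation and its strand setting the sources used here give nothing, so reads of overlapping genes on opposite strands may be mixed. Symbols, positions and exonic lengths came from GENCODE M21 (GRCm38), which holds 28230 of the 28293 identifiers.

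From the counts, CPM was computed on library totals and, per gene, divided by exonic length where genes are set beside each other. KO was tested against WT in edgeR 4.0.16 (R 4.3.3) with TMM, filterByExpr and the quasi-likelihood test, adjusted by the Benjamini-Hochberg method over all 15081 tested genes and called under 0.05. Fold changes are those of this fit. The SE is the log2 fold change divided by the root of the F statistic. The fit was tested on simulated counts with known changes, where false calls took more than the nominal share of the calls. Few genes were changed in that simulation, whereas 75.1% of tested genes were called in these data, so that share does not carry over. DESeq2 1.42.0 and limma 3.58.1 served as alternatives, beside other scalings, filters, thresholds, a replicate block and leaving out each library. Figures used Python 3.11.15 and matplotlib 3.10.9.

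All 31 members are named. From each list of the pathway, up to 4 genes with the smallest p and 2 with the largest p are named. Some genes that this rule selects are not reported here. Members and lists were chosen with earlier results of these data known.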

Additional observations from a re-analysis of the deposited data

How the results depend on the processing

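Over 16 alternatives no member changed direction. Calls of all 31 members were kept with DESeq2's size factors, DESeq2's Wald test and limma-voom. With a minimum of 1 CPM in 3 libraries Nr4a3 was not tested and the members' median was −0.46, and the other 30 calls were kept. Against a fold of 1.5 (glmTreat) 3094 genes were higher and 2527 lower in KO, with 3 and 14 members. With at least 2-fold changes 2518 genes were higher and 1715 lower, with 2 and 11 members. The main counts were 5678 higher and 5652 lower, and library totals alone gave 6181 higher and 5139 lower. That scaling put the medians at −0.53 for all members, −0.53 for KLF and −1.41 for IER. Upper-quartile scaling put KLF at −0.54 and IER at −1.42. A change of scaling moves the log2 fold changes of all genes nearly alike. The median of all tested genes was 0.01 in the main fit, 0.09 with library totals and 0.07 with upper-quartile scaling. Leaving out each library in turn gave 5352 to 5678 genes higher and 5327 to 5775 lower, 6 to 8 members higher and 18 to 20 lower. Medians then ran 0.03 (without WT replicate 1) to 0.12 for AP-1, −2.32 to −1.63 for NR4A, −0.67 to −0.52 for KLF, −1.52 to −1.47 for IER and −0.65 to −0.52 for all members. With the length of the longest coding transcript, shares in KO and WT were 21.1% and 13.1% for Fos, 1.91% and 1.45% for Fosb, 13.02% and 42.7% for Fosl1, 63.96% and 42.7% for Fosl2, 58.5% and 49.4% for Jun, 26.6% and 29.5% for Junb, and 14.9% and 21.1% for Jund. Why the medians moved when single libraries were left out was not tested. With replicate number as a block, 5832 genes were higher and 5865 lower, with 9 and 20 members, and Fos, Junb and Jund were called (edgeR adjusted p = 0.042, 0.024 and 0.014). Same-numbered libraries correlated at 0.147, −0.115 and 0.159 in their deviations from the group means, and they share only a number. Depth limits Nr4a3 most, with 3 to 8 counts a library in KO.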
